A study of Danio rerio with 4 samples.

Results

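Brains of atrn-/- zebrafish were compared with wild-type brains over both sexes, in 2 atrn-/- and 2 wild-type libraries, in a fit that has sex as a covariate. The genes described averaged 10 or more counts per library, which held for 19943 of the 31030 genes in the deposited table, and all 4 libraries of the series entered the comparison. Of the genes kept, 13893 carried a gene name and 6050 carried only a clone or locus identifier. The results turn on the named genes that differed the same way in males and females and that lie outside sterol synthesis, blood and muscle.

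The atrn-/- fish were homozygous for nju70, a small deletion made with CRISPR/Cas9 in an exon of atrn and predicted to leave a truncated protein. The wild-type fish were of the same age, 4 months post-fertilization (mpf). There was 1 library for each sex and genotype, and the text of the study speaks both of RNA from a single brain and of several brains taken per group, so how many fish stand behind each library is unclear. With sex in the fit, the p-values weigh the difference between genotypes against a variance drawn partly from the disagreement between males and females. That disagreement has 1 residual degree of freedom per gene. The variance of each gene was also pulled toward that of all genes, with 6.65 prior degrees of freedom. Most of its weight thus lay outside the gene itself, so a call does not show that the sexes agreed. Spread between fish of the same sex and genotype was not measured. Nothing in the labels says whether the mutant and wild-type fish were siblings. The number of reads counted on genes was 16254750 in the male and 13116358 in the female mutant, against 16100263 in the male and 8654693 in the female wild type, so the female wild-type library was the shallowest.

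Attractin is a transmembrane glycoprotein with CUB, kelch and EGF-type domains. In mice it is the product of the mahogany locus and acts as an accessory receptor for the pigment signal agouti, and in rats its loss causes the zitter phenotype of tremor and spongy degeneration of the brain. It is expressed widely in the nervous system, and the question of the comparison is which brain transcripts differ when the zebrafish gene is disrupted.

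The targeted gene was measured in every library. The level of atrn, in CPM (counts on the gene relative to the TMM-scaled library total), was 28.7 in the male and 32.3 in the female mutant, against 50.6 in the male and 75.5 in the female wild type. Both mutants lay below both wild types, and neither mutant was at 0. The log2 fold change was -1.02 (standard error (SE) 0.147, adjusted p = 0.0499 by the quasi-likelihood test of edgeR, adjusted by Benjamini-Hochberg), a level 2.03-fold lower in atrn-/- brains, at the edge of the threshold of 0.05. Over 8 other settings the adjusted p of atrn lay between 0.00367 and 0.236, and it passed the threshold in 4 of them. With 1 library left out at a time the log2 fold change lay between -1.31, when the male wild type was dropped, and -0.73, when the female wild type was dropped, and it passed in 1 of 4 such fits. These fits also lack the sex term, and with all 4 libraries but no sex term the adjusted p of atrn was 0.236. A change in transcript amount and a change in the number of cells that carry it cannot be told apart in these bulk libraries, for atrn or for any gene below.

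The libraries carried neuron markers at like levels. A list of neuron genes took 2.104% and 2.07% of the counts in the male and female mutant, against 2.08% and 2.01% in the male and female wild type. Radial glia genes took 0.934% and 0.841% in the male and female mutant, against 0.740% and 0.714% in the male and female wild type. Oligodendrocyte and myelin genes took 1.34% and 1.31% in the male and female mutant, against 1.11% and 1.52% in the male and female wild type. The female wild-type library stood apart by skeletal muscle transcripts, which took 0.0757% to 0.137% of the counts in the mutants and 0.0998% in the male wild type but 0.764% in the female wild type. Blood genes took 0.195% to 0.202% of the counts in the mutants, against 0.330% to 0.400% in the wild types. Whether muscle or blood tissue in the sample had a part in any gene below was not tested, and the calls that did not pass without the female wild type are counted below.

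In all, 61 genes passed an adjusted p of 0.05, of which 20 were higher (0.100% of the genes tested) and 41 lower (0.206%) in atrn-/- brains, and 1960 had an unadjusted p under 0.05. The ratio of mutant over wild type had the same sign in males and females in 58 of the 61. Over all genes tested, 27.9% were higher in both sexes and 28.5% lower in both. A test whose variance draws partly on the disagreement between sexes can favour genes with 1 sign. Another 2 had no counts in either male library, and the muscle gene myha had opposite signs. In 56 of the 61 the 95% counting intervals of both sexes lay on 1 side of 0; these intervals cover counting error only. The genes without a name made up 27 of the 61, 9 higher and 18 lower, and the lists of sterol synthesis, blood and muscle held 2, 8 and 6. The remaining 18 named genes are atrn, 9 that rose and 8 that fell. The 2 mutant libraries lay above both wild types for all 9 genes that rose, and below both for 8 of the 9 that fell, atrn included. The genes were chosen on these same libraries, so this separation, here and for single genes below, was largely set by the choice. Without the female wild type 3 of the 18 passed (ccbl2, efemp2b and fibpb), and the adjusted p of the other 15 lay between 0.0736 and 0.981. Without the female mutant 1 passed (exorh), without the male mutant 7 and without the male wild type 4. With all 4 libraries but no sex term 2 passed (ccbl2 and fibpb), so these fits differ from the reported one by the sex term as well as by the library. Over all genes tested, 18.6% had both mutants above both wild types and 19.2% had both mutants below.

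**Figure D1:**
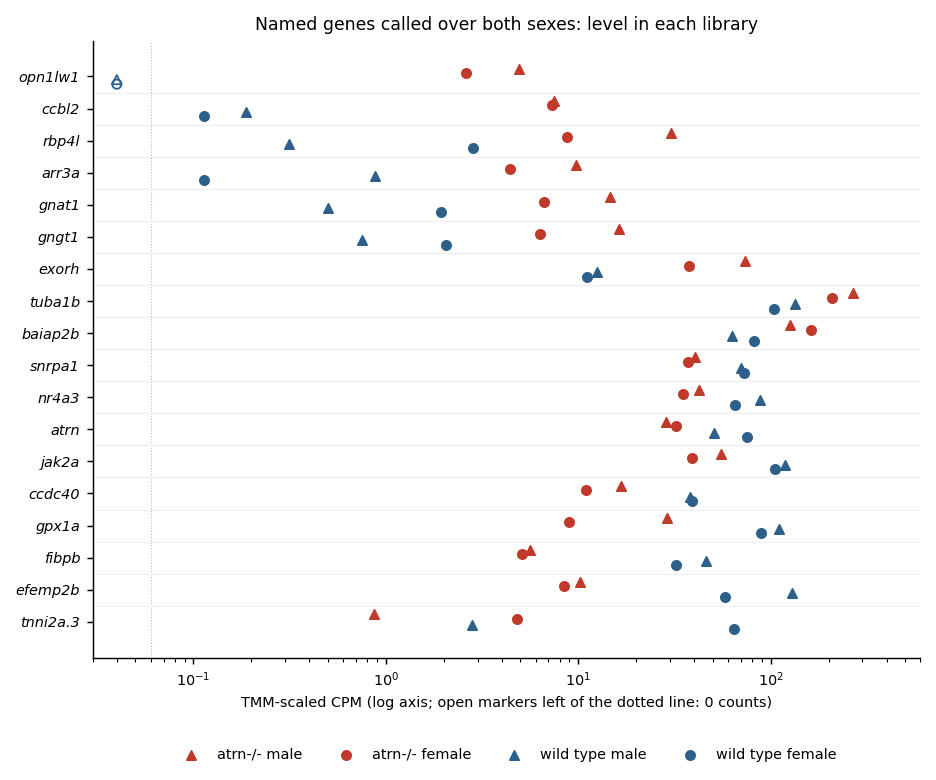
Level of the 18 named genes that passed the test over both sexes, in TMM-scaled CPM on a log axis, with 1 point per library (red, atrn-/-; blue, wild type; triangles, males; circles, females; open markers, 0 counts). Red and blue points separate for every gene except tnni2a.3, where the female mutant, at 4.81 CPM, lies above the male wild type, at 2.82 CPM.

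A fixed size of difference gave a wider set. At this size, 2-fold or more in the same direction in each sex, 130 genes were higher (0.652% of the genes tested) and 156 lower (0.782%) in atrn-/- brains. Of these, 97 carried a name and lay outside the 3 lists, 56 higher and 41 lower, and 14 of the 97 passed the test over both sexes. Among those averaging 50 or more counts, 16 of the named genes were higher and 16 lower.

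**Figure D2:**
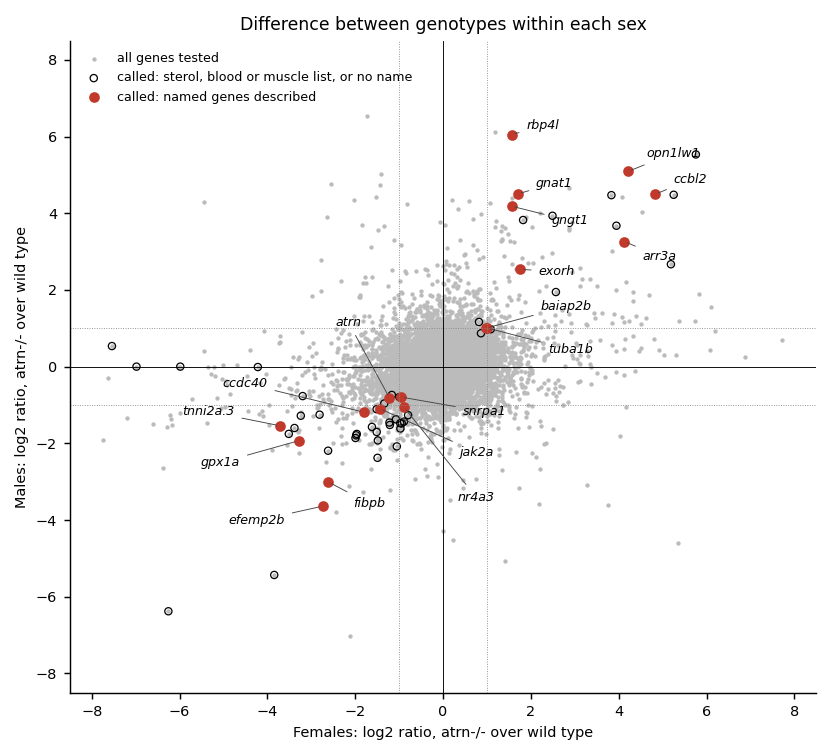
Log2 ratio of atrn-/- over wild type in females (x axis) and males (y axis) for the 19943 genes tested, with dotted lines at 2-fold. The named genes that passed (red) lie in the upper right and lower left; open circles near a male ratio of 0 are genes whose difference came from the female libraries, as for LOC100007086, with a male log2 ratio of -0.01 and a female one of -4.22.

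Of the 9 named genes that rose, 6 belong to the list of photoreceptor and pineal genes. The zebrafish pineal organ sits on top of the brain and holds light-sensing cells that use the phototransduction cascade and make melatonin. The most abundant of the 6, exorh (an opsin of the pineal), had 73.7 CPM in the male and 37.7 in the female mutant, against 12.6 in the male and 11.1 in the female wild type. Over both sexes the log2 fold change came to 2.22 (SE 0.206, adjusted p = 0.00920 by edgeR's quasi-likelihood test), 4.65-fold higher in atrn-/-, and the male difference, a log2 ratio of 2.54, was larger than the female one of 1.76.

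Transducin is the G protein that couples an activated opsin to phosphodiesterase. Its alpha subunit gnat1 had 14.6 CPM in the male and 6.64 in the female mutant, against 0.501 in the male and 1.94 in the female wild type, a log2 fold change of 3.40 (SE 0.365, adjusted p = 0.0151). Its gamma subunit gngt1 had 16.2 CPM in the male and 6.34 in the female mutant, against 0.751 in the male and 2.05 in the female wild type, a log2 fold change of 3.24 (SE 0.349, adjusted p = 0.0151). Both subunits showed the same order of libraries: male mutant, female mutant, female wild type, male wild type.

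The same order held for rbp4l, a retinol-binding protein 4-like gene of the family that carries vitamin A. It had 30.4 CPM in the male and 8.71 in the female mutant, against 0.313 in the male and 2.85 in the female wild type. The fit gave a log2 fold change of 3.96 (SE 0.311, adjusted p = 0.00372), with a male ratio of 6.05 and a female ratio of 1.56. In the reference annotation rbp4l overlaps the phosphodiesterase gene pde6b, and the library kit does not record strand, so some reads of the pair may be confused. The overlap is one of whole gene spans, and whether the pair shares exons was not tested.

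The cone genes were lower in level. The arrestin arr3a, which ends the signal of an activated cone opsin, had 9.69 CPM in the male and 4.43 in the female mutant, against 0.877 in the male and 0.114 in the female wild type, the last resting on 1 count. Its log2 ratio was 3.26 in males (95% counting interval 2.68 to 4.37) and 4.13 in females (2.74 to 10.6), with an adjusted p of 0.0207 over both sexes. The red-sensitive cone opsin opn1lw1 had 79 counts in the male and 34 in the female mutant, against 0 in both wild types. Against a floor of 3 counts in each wild-type library this was at least 26.1-fold higher in males and 7.59-fold higher in females, with an adjusted p of 0.0478. Neither group overlapped the other for either cone gene.

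Other cone opsins examined had low counts or none. The tandem copy opn1lw2 had 30 counts in the male and 15 in the female mutant, against 3 in the male and 0 in the female wild type (adjusted p = 0.156). The ultraviolet opsin opn1sw1 had 0 counts in all 4 libraries, and the green opsin opn1mw1 had 2 counts in the male mutant and 0 in the other libraries. The rod opsin rho had 4 counts in each mutant, against 3 in the male and 0 in the female wild type, too few for the test. The cone transducin gnat2 had 71 counts in the male and 43 in the female mutant, against 42 in the male and 26 in the female wild type. The whole list took 0.0817% of the counts in the male and 0.0720% in the female mutant, against 0.0545% in the male and 0.0542% in the female wild type. Most of these counts in each library came from gnb1b, a G protein beta subunit gene and the most abundant member tested. It had 8229 and 7097 counts in the male and female mutant, against 7347 and 3908 in the male and female wild type. Its log2 fold change was 0.22 (adjusted p = 0.539 by edgeR's quasi-likelihood test).

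Of the 35 genes of this list that were tested, 6 rose, 0 fell and 29 did not pass. At an unadjusted p under 0.05, 26 were higher and 0 lower in atrn-/-, against 948 higher (4.75%) and 1012 lower (5.07%) among all genes tested. The median log2 fold change of the list was 1.90 (2.48 in males, 1.095 in females), and that of all genes was 0.00 after rounding. The list holds 72 genes, and members with almost no wild-type counts, such as opn1lw1, met the filter through the mutant libraries. That can raise both the median and the count of higher genes. Among members averaging 50 or more counts the median was 1.37. In both sexes 29 of the 35 were higher and 2 lower, and the lowest log2 fold change in the list was -0.33. The most abundant member, gnb1b, was at 0.22, and the members named next are all higher ones. Members that did not pass, named after their values had been seen, included asmt, the last enzyme of melatonin synthesis, with 6.96 and 2.52 CPM in the male and female mutant, against 0.564 and 0.912 in the male and female wild type (log2 fold change 2.88, adjusted p = 0.0708). The retinoid isomerase rpe65a had a log2 fold change of 2.43 (adjusted p = 0.0708). The cone-rod transcription factor crx had 40 and 14 counts in the male and female mutant, against 2 and 3 in the male and female wild type, a log2 ratio of 3.27 in males (95% counting interval 2.36 to 7.40) and 1.31 in females (-0.20 to 4.08), with an adjusted p of 0.193. The guanylyl cyclase gc3 had 9.88 and 9.47 CPM in the male and female mutant, against 4.01 and 3.42 in the male and female wild type, a log2 fold change of 1.37 (adjusted p = 0.111). The retinoid-binding irbp had a log2 fold change of 1.77 (adjusted p = 0.0944) and overlaps 4 other genes in the reference annotation.

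With all 4 libraries but no sex term, 0 of the 6 genes passed, with adjusted p between 0.133 for exorh and 0.312 for rbp4l. Over the 4 fits that each left out 1 library, also with no sex term, exorh passed in 2, with a log2 fold change between 1.67 and 2.63. gnat1, gngt1, rbp4l, arr3a and opn1lw1 passed in 0 of 4, and their direction did not turn in any. These genes were chosen for 1 direction in both sexes of the same libraries, so a kept direction was largely set by the choice. For rbp4l the log2 fold change was 5.96 without the female wild type and 2.70 without the male mutant, and that of arr3a was 5.86 without the male wild type, when 1 count is left in the wild-type group. gnat1 had 4.42 without the female wild type and 2.47 without the male wild type, and gngt1 3.93 without the female wild type and 2.31 without the male mutant. limma-voom called 1 member of the list and DESeq2 called 4, and rbp4l and opn1lw1 passed by neither. Over 8 other settings with all 4 libraries, exorh passed in 6, arr3a in 5, and gnat1, gngt1 and rbp4l in 4 each. opn1lw1 passed in 1 of 7.

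Another gene that rose was ccbl2, cysteine conjugate-beta lyase 2, known in mammals as a kynurenine aminotransferase that makes kynurenic acid. It had 120 counts in the male and 96 in the female mutant, against 3 in the male and 1 in the female wild type. In CPM this was 7.45 and 7.33 in the male and female mutant, against 0.188 and 0.114 in the male and female wild type. The mutants were nearly equal to each other and the wild types held almost no reads. The log2 ratio was 4.50 in males (95% counting interval 3.73 to 7.61) and 4.83 in females (3.49 to 11.3), with an adjusted p of 0.00900 over both sexes. It passed in 7 of 8 other settings and in 2 of 4 fits with a library left out. In the reference annotation ccbl2 overlaps 9 genes. Among these, only the transcription cofactor lmo4b is given here, with a log2 fold change of -0.01 (adjusted p = 0.993). Whether reads of the overlapping genes were counted on ccbl2 was not tested.

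Other enzymes of the kynurenine and transamination list did not pass the test. Of 14 members tested, ccbl2 rose, 0 fell and 13 did not pass, beside 0.100% higher and 0.206% lower of all genes tested. The list median was 0.14 on the log2 scale. The related ccbl1 had 12.3 and 10.3 CPM in the male and female mutant, against 17.2 and 14.4 in the male and female wild type (log2 fold change -0.48, adjusted p = 0.466). The mitochondrial aspartate transaminase got2a had a log2 fold change of 0.35 (adjusted p = 0.366) and the cytosolic got1, the most abundant member, one of 0.18 (adjusted p = 0.629). fah, the last enzyme of tyrosine breakdown, had 15.3 and 11.2 CPM in the male and female mutant, against 6.70 and 0.456 in the male and female wild type (log2 fold change 1.84, adjusted p = 0.240).

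The genes tuba1b and baiap2b, which also rose, are abundant and act in the cytoskeleton. tuba1b, an alpha-tubulin, had 269 CPM in the male and 208 in the female mutant, against 134 in the male and 104 in the female wild type. Its log2 fold change was 1.01 (SE 0.104, adjusted p = 0.0134), with ratios of 1.01 in males and 1.00 in females. baiap2b, the zebrafish counterpart of the mammalian scaffold IRSp53 that acts on actin in protrusions and at synapses, had 126 CPM in the male and 162 in the female mutant, against 62.7 in the male and 81.8 in the female wild type. The log2 fold change was 1.00 (SE 0.110, adjusted p = 0.0151), with ratios of 1.01 in males and 0.98 in females. Each was close to 2-fold higher in atrn-/- in either sex. Alpha-tubulin genes are near-identical to each other, so reads of tuba1b may be shared with other members of the family, and that was not tested. tuba1b and baiap2b passed in 6 of 8 other settings and in 0 of 4 fits with a library left out, where their log2 fold changes lay between 0.81 and 1.2 for each.

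Among the 9 named genes outside the 3 lists that fell, efemp2b and fibpb had the smallest adjusted p-values. efemp2b encodes a fibulin of the extracellular matrix (fibulin-4 in mammals, needed to assemble elastic fibres and to bring lysyl oxidase to them). It had 10.2 CPM in the male and 8.48 in the female mutant, against 129 in the male and 57.6 in the female wild type. Over both sexes the log2 fold change came to -3.26 (SE 0.217, adjusted p = 0.00173), a level 9.56-fold lower in atrn-/-. fibpb, an intracellular protein that binds acidic fibroblast growth factor, had 5.59 CPM in the male and 5.12 in the female mutant, against 45.9 in the male and 32.2 in the female wild type. The fit gave a log2 fold change of -2.86 (SE 0.190, adjusted p = 0.00173), 7.28-fold lower in atrn-/-.

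These genes lie side by side, with 0 genes between them, in the reference gene order, and fibpb overlaps fosl1b there. The mutant libraries were close to each other for both genes and far below both wild types. fibpb passed in 8 of 8 other settings and efemp2b in 7 of 8, and each passed in 3 of 4 fits with a library left out. The log2 fold change stayed between -3.78 without the female wild type and -2.61 without the male wild type for efemp2b and between -3.09 and -2.58 for fibpb.

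The matrix enzymes that work with fibulins did not pass. loxl2b, which crosslinks collagen, had 179 CPM in the male and 91.1 in the female mutant, against 2.44 in the male and 39.8 in the female wild type. The wild types differed from each other far more than the mutants did, and the log2 ratio was 6.11 in males and 1.19 in females. Its log2 fold change was 3.16 (SE 0.914, adjusted p = 0.294), and without the female wild type it was 5.79 (adjusted p = 0.0133, against 0.229 to 0.998 in the other 3 such fits). loxl2b overlaps the dopamine receptor gene drd7 in the reference annotation. lox itself, examined after its values were seen, had 1.06 and 0.764 CPM in the male and female mutant, against 2.32 and 1.82 in the male and female wild type (log2 fold change -1.17, adjusted p = 0.474). Of 20 tested genes of the elastic fibre and lysyl oxidase list, efemp2b fell, 0 rose and 19 did not pass, with a median of 0.11. Among all genes tested, 0.100% passed as higher and 0.206% as lower.

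gpx1a, a glutathione peroxidase that reduces hydrogen peroxide, had 28.8 CPM in the male and 8.94 in the female mutant, against 111 in the male and 88.7 in the female wild type. The mutants were below both wild types, and the female mutant was lower than the male one. The log2 fold change was -2.52 (SE 0.281, adjusted p = 0.0152), 5.75-fold lower in atrn-/-. It passed in 6 of 8 other settings and in 1 of 4 fits with a library left out, with a log2 fold change between -3.48 without the male mutant and -1.79 without the female mutant. Of 39 tested genes of the antioxidant and glutathione list, gpx1a fell, 0 rose and 38 did not pass. At an unadjusted p under 0.05, 6 were higher and 1 lower, beside 4.75% higher and 5.07% lower of all genes tested.

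Other redox genes had the values that follow. gstp1, a glutathione transferase, had 188 and 163 CPM in the male and female mutant, against 115 and 119 in the male and female wild type (log2 fold change 0.58, adjusted p = 0.120). slc7a11, the cystine importer that feeds glutathione synthesis, examined after its values were seen, had 2.92 and 5.65 CPM in the male and female mutant, against 1.19 and 1.03 in the male and female wild type (log2 fold change 1.80, adjusted p = 0.216). nos2a, an inducible nitric oxide synthase, had 6.77 and 8.48 CPM in the male and female mutant, against 2.94 and 3.42 in the male and female wild type (log2 fold change 1.25, adjusted p = 0.178). For all 3, both mutants lay above both wild types, as for 18.6% of all genes tested. nos2a was chosen as at least 2-fold higher in both sexes, slc7a11 after its values were seen and gstp1 for its small p. Each of these choices makes that likely. gpx4b, the most abundant list member, had a log2 fold change of 0.04 (adjusted p = 0.942).

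jak2a, a tyrosine kinase that relays signals from cytokine and hormone receptors to STAT proteins, had 55.5 CPM in the male and 39.0 in the female mutant, against 119 in the male and 106 in the female wild type. Over both sexes the log2 fold change came to -1.26 (SE 0.131, adjusted p = 0.0134), 2.40-fold lower in atrn-/-. It passed in 6 of 8 other settings and in 1 of 4 fits with a library left out, between -1.53 and -1.02. cishb, a feedback inhibitor of this kinase family in mammals, examined after its values were seen, had 0.497 and 0.993 CPM in the male and female mutant, against 2.63 and 2.51 in the male and female wild type (log2 fold change -1.85, adjusted p = 0.264).

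nr4a3, an orphan nuclear receptor and immediate early gene, had 42.5 CPM in the male and 34.9 in the female mutant, against 88.3 in the male and 65.1 in the female wild type. The fit gave a log2 fold change of -0.98 (SE 0.125, adjusted p = 0.0288). It passed in 6 of 8 other settings and in 0 of 4 fits with a library left out, between -1.18 and -0.75. Its relative nr4a1 had 27.0 and 16.96 CPM in the male and female mutant, against 48.5 and 35.6 in the male and female wild type (log2 fold change -0.94, adjusted p = 0.0586). Of 29 tested immediate early genes, nr4a3 fell, 0 rose and 28 did not pass, beside 0.100% higher and 0.206% lower of all genes tested. The list median was 0.03. The most abundant, npas4a, had a log2 fold change of 0.07 (adjusted p = 0.867).

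hif1al2, a hypoxia-inducible factor alpha-like gene, had 7.08 CPM in the male and 10.8 in the female mutant, against 28.9 in the male and 24.3 in the female wild type. Its log2 fold change was -1.61 (SE 0.234) with an adjusted p of 0.0504, just above the threshold. Both mutants lay below both wild types, as for 19.2% of all genes tested. Its choice as at least 2-fold lower in both sexes makes that likely. The adjusted p of hif1al2 lay between 0.00233 and 0.224 over 8 other settings. With a library left out, its log2 fold change lay between -1.91 and -1.31.

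snrpa1, a protein of the U2 small nuclear ribonucleoprotein of the spliceosome, had 40.5 CPM in the male and 37.2 in the female mutant, against 70.32 in the male and 72.3 in the female wild type. Libraries of a genotype were nearly equal. The log2 fold change was -0.87 (SE 0.126, adjusted p = 0.0489). It passed in 4 of 8 other settings and in 0 of 4 fits with a library left out, between -0.94 and -0.82.

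ccdc40, which places the inner dynein arms of motile cilia, had 16.6 CPM in the male and 11 in the female mutant, against 37.9 in the male and 38.9 in the female wild type. Over both sexes the log2 fold change came to -1.48 (SE 0.190, adjusted p = 0.0292), 2.79-fold lower in atrn-/-. Its partner in the cilium, ccdc39, lay the other way, with 60.8 and 38.1 CPM in the male and female mutant, against 32.6 and 20.1 in the male and female wild type (log2 fold change 0.91, adjusted p = 0.0528). Of 31 tested genes of ependyma and cilia, ccdc40 fell, 0 rose and 30 did not pass, with a median of 0.06. Among all genes tested, 0.100% passed as higher and 0.206% as lower. ccdc40 passed in 6 of 8 other settings and in 1 of 4 fits with a library left out, between -1.80 and -1.21.

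Also lower was tnni2a.3, a troponin of fast skeletal muscle that the muscle list did not hold. It had 0.870 CPM in the male and 4.81 in the female mutant, against 2.82 in the male and 64.8 in the female wild type, and the groups overlapped. The fit gave a log2 fold change of -3.36 (SE 0.258, adjusted p = 0.00345), and -0.07 without the female wild type (adjusted p = 0.981), the library with the most muscle transcripts. Over the other 3 fits with a library left out its adjusted p lay between 0.0390 and 0.999941, the last without the female mutant. It also overlaps tnni2a.2, a tandem copy, in the reference annotation.

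**Figure D3:**
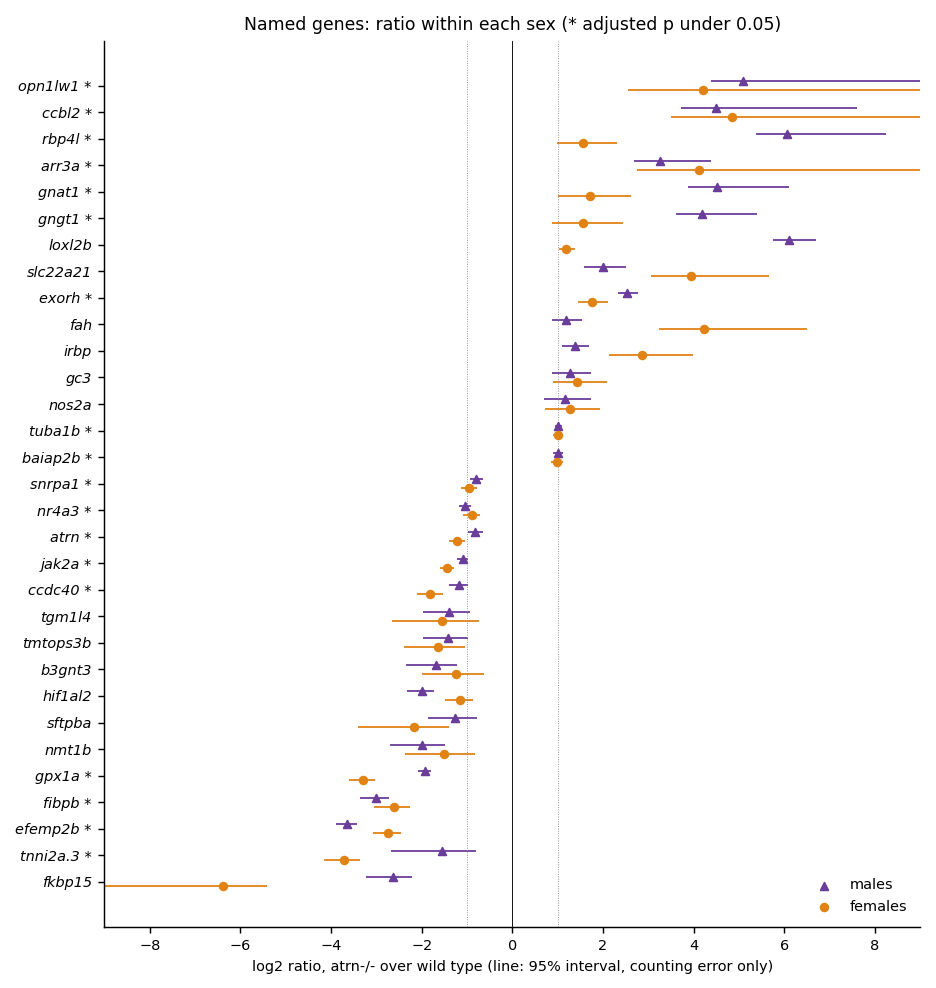
Log2 ratio of atrn-/- over wild type within males (triangles) and females (circles) for the named genes that passed the test (asterisk) and for further named genes at least 2-fold in the same direction in males and females, with the 95% counting interval as a line (lines that reach the frame go beyond it). tuba1b and baiap2b have a ratio of about 1 in either sex, while loxl2b, at 6.11 and 1.19, and rbp4l, at 6.05 and 1.56, differ between males and females.

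Further named genes were at least 2-fold in the same direction in males and females and did not pass the test. Among those higher in atrn-/-, slc22a21, an organic cation transporter of the carnitine transporter family, had 12.9 and 12.6 CPM in the male and female mutant, against 3.13 and 0.684 in the male and female wild type (log2 fold change 2.59, adjusted p = 0.0584). It overlaps galnt10 in the reference annotation. Chosen after their values were seen, the cytochrome P450 gene cyp2aa4 had 63 and 34 counts in the male and female mutant, against 6 and 3 in the male and female wild type (adjusted p = 0.0767). Its neighbour cyp2aa11 had 39 and 23 counts in the male and female mutant, against 1 in each wild type, a log2 ratio of 3.61 in males (95% counting interval 2.71 to 10.6) and 2.86 in females (1.32 to 9.31), with an adjusted p of 0.0537. The deacylase sirt7 had 27.6 and 58.2 CPM in the male and female mutant, against 13.2 and 10.9 in the male and female wild type (log2 fold change 1.69, adjusted p = 0.0794). The secreted lgals3bpb, which binds galectins, had 45.5 and 56.5 CPM in the male and female mutant, against 22.5 and 13.1 in the male and female wild type (log2 fold change 1.495, adjusted p = 0.0708).

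Among those lower in atrn-/-, fkbp15, an FK506-binding protein family member, had 39 counts in the male and 0 in the female mutant, against 252 in the male and 107 in the female wild type (adjusted p = 0.0708). It overlaps lrsam1 in the reference annotation. nmt1b, which attaches myristate to proteins, had a log2 fold change of -1.87 (adjusted p = 0.0914) and overlaps svild. tmtops3b, one of the teleost multiple tissue opsins, had 3.04 and 2.21 CPM in the male and female mutant, against 8.39 and 7.18 in the male and female wild type, a log2 fold change of -1.55 (adjusted p = 0.102), opposite in sign to the photoreceptor genes above. The glycosyltransferase b3gnt3 had a log2 fold change of -1.56 (adjusted p = 0.131), the surfactant-type protein sftpba one of -1.63 (adjusted p = 0.178) and the transglutaminase tgm1l4 one of -1.504 (adjusted p = 0.161). For each of these 6 genes both mutants lay below both wild types, as for 19.2% of all genes tested. Their choice as at least 2-fold lower in both sexes makes that likely.

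For 5 of the named genes, the duplicate that carries the other letter, a or b, was also read. The duplicates were examined after the values of the named genes were known, and none passed the test. fibpa had 57.7 and 53.8 CPM in the male and female mutant, against 61.4 and 53.1 in the male and female wild type, a log2 fold change of -0.04 (SE 0.122, adjusted p = 0.951). baiap2a had one of -0.07 (SE 0.113, adjusted p = 0.889) and jak2b one of -0.24 (SE 0.126, adjusted p = 0.594). The rarer copies efemp2a, at 1.19 to 4.66 CPM over the libraries, and gpx1b had log2 fold changes of 0.69 (SE 0.379) and 0.25 (SE 0.339), with adjusted p of 0.620 and 0.865. The difference between the fold changes of 2 copies was not tested. Copies outside these 5 went the same way as their partners. The tandem copy opn1lw2 of opn1lw1 had a log2 fold change of 3.65, and loxl2a, the duplicate of loxl2b, one of 2.52. Neither passed the test.

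**Figure D4:**
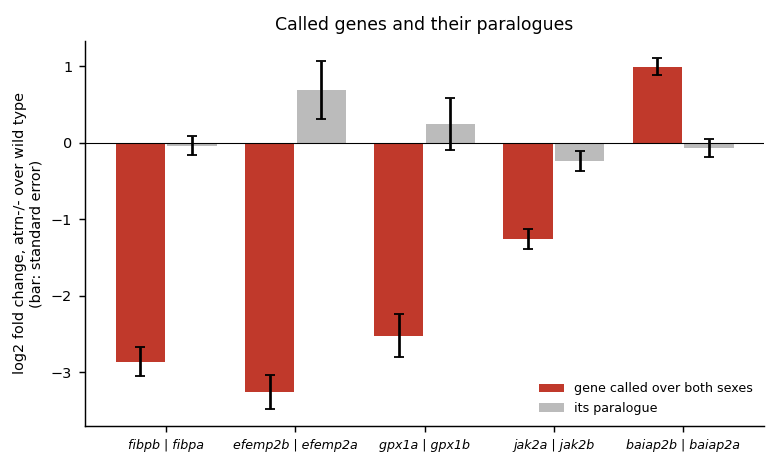
Log2 fold change of atrn-/- over wild type from the fit over both sexes for 5 named genes (red) and their duplicates (grey), with the standard error as bars. The named copies lie between -3.26 and 1.00, and these duplicates between -0.24 and 0.69. The copies opn1lw2 and loxl2a are not shown.

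Among the genes without a name, 4 with the smallest p and the same sign in both sexes were examined. si:ch211-250g4.3 had 55.2 and 58.2 CPM in the male and female mutant, against 192 and 230 in the male and female wild type (log2 fold change -1.89, adjusted p = 0.00173). LOC571737, annotated as similar to the cGMP phosphodiesterase PDE9A, had 66.0 and 34.8 CPM in the male and female mutant, against 223 and 136 in the male and female wild type (log2 fold change -1.86, adjusted p = 0.00173). LOC101882487 had 155 and 103 counts in the male and female mutant, against 1 and 0 in the male and female wild type (adjusted p = 0.00233). LOC100007086 had 1.24 and 4.51 CPM in the male and female mutant, against 1.25 and 86.4 in the male and female wild type (adjusted p = 0.00233), so its difference came from the female wild type.

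The same comparison was read in 24 lists of genes for cell types and pathways. In 14 of them edgeR called 0 genes, and in 10 of these DESeq2 and limma-voom also called 0. Calls were rare among all genes tested too, at 0.100% higher and 0.206% lower by edgeR. Attractin's known partners and the melanocortin system were among the lists with a called gene, which was atrn itself. agrp2, an agouti-related peptide, had 13.2 and 9.78 CPM in the male and female mutant, against 5.70 and 6.96 in the male and female wild type (log2 fold change 0.90, adjusted p = 0.297). mgrn1b, a ubiquitin ligase that acts with attractin in mice, had a log2 fold change of -0.17 (adjusted p = 0.657). The median of the 16 members tested was 0.02.

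The radial glia list had a median of 0.19 on the log2 scale (0.24 in males, 0.21 in females) without a call by edgeR. Of 25 radial glia genes tested, 0 passed, and DESeq2 called 2 higher and limma-voom 0. At an unadjusted p under 0.05, 9 were higher and 0 lower, beside 4.75% higher and 5.07% lower of all genes tested. In both sexes 17 of the 25 (68.0%) were higher in atrn-/-, against 27.9% of all genes tested, and 0 were lower in both, against 28.5%. gfap, the intermediate filament of astroglia, had 131 and 119 CPM in the male and female mutant, against 72.8 and 83.1 in the male and female wild type (log2 fold change 0.69, adjusted p = 0.0944). s100b had a log2 fold change of 0.49 (adjusted p = 0.200) and the most abundant member, the glutamate transporter slc1a2b, one of 0.12 (adjusted p = 0.736). The list took 0.934% and 0.841% of the counts in the male and female mutant, against 0.740% and 0.714% in the male and female wild type.

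Neuronal lists had medians near that of all genes. The counts at an unadjusted p under 0.05 stand beside 4.75% higher and 5.07% lower of all genes tested. Of 40 neuron genes, 0 passed by edgeR, DESeq2 or limma-voom, 3 were higher and 0 lower at an unadjusted p under 0.05, and the median was 0.04. Of 48 glutamate and GABA receptor genes, 0 passed by any of the 3 tests, 1 was higher and 6 lower at an unadjusted p under 0.05, and the median was -0.09. The AMPA receptor subunit gria4b had 207 and 183 CPM in the male and female mutant, against 256 and 246 in the male and female wild type (log2 fold change -0.36, adjusted p = 0.286). In both sexes 24 of the 48 (50%) were lower in atrn-/-, against 28.5% of all genes tested. Among 48 neuropeptide genes 0 passed by any of the 3 tests, with 3 higher and 0 lower at an unadjusted p under 0.05. The opioid precursor penkb had 28.3 and 38.3 CPM in the male and female mutant, against 16.03 and 16.4 in the male and female wild type (log2 fold change 1.01, adjusted p = 0.0779).

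**Figure D5:**
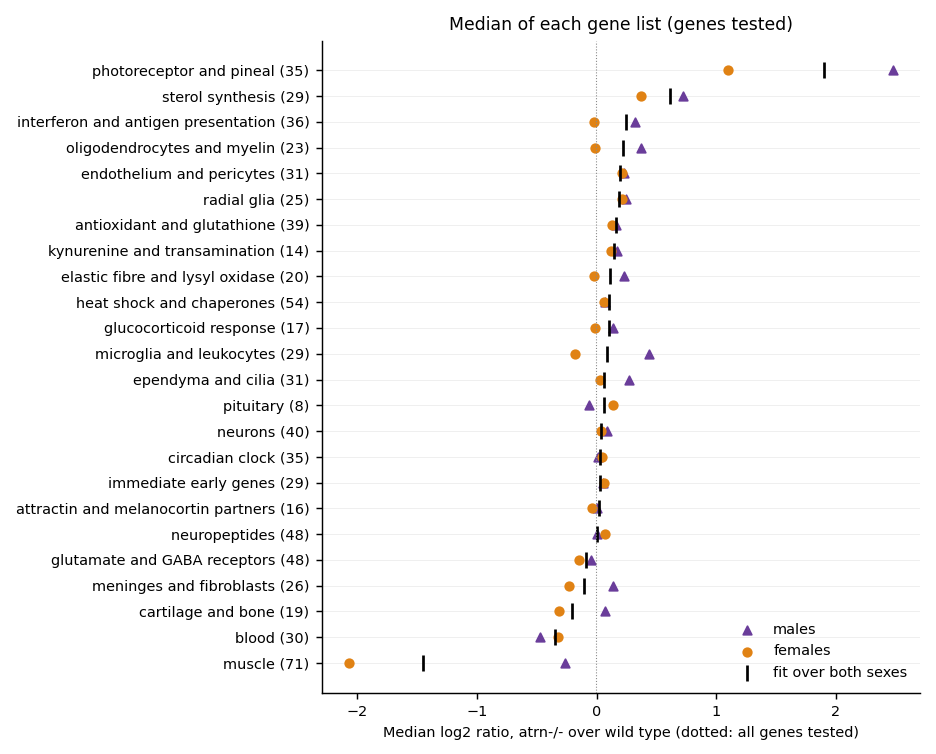
Median log2 ratio of atrn-/- over wild type in each gene list, with the number of genes tested in parentheses, in males (triangles), females (circles) and in the fit over both sexes (bars). The photoreceptor and pineal list lies highest, at 1.90 over both sexes, and the muscle list lowest, at -1.45, with -0.27 in males and -2.07 in females; without the female wild type the muscle median was 0.40.

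Lists of other cell types that a dissected brain can hold were read as well. edgeR called 0 of 8 pituitary, 19 cartilage and bone, 26 meninges and fibroblast, 23 oligodendrocyte, 29 microglia and leukocyte, 31 endothelium and pericyte and 36 interferon and antigen presentation genes. DESeq2 called 1 higher in the microglia list and 0 in the other 6, and limma-voom called 0 in all 7. At an unadjusted p under 0.05, 6 cartilage and bone genes were lower and 2 higher, 7 interferon genes were higher and 2 lower, 6 endothelium genes were higher and 0 lower, and 4 oligodendrocyte genes were higher and 0 lower, beside 4.75% higher and 5.07% lower of all genes tested. In the other lists 3 meninges genes were higher and 3 lower, 4 microglia genes were higher and 1 lower, and 1 pituitary gene was higher and 0 lower. In the lists set aside, 2 of 29 sterol synthesis genes rose, 8 of 30 blood genes fell and 6 of 71 muscle genes fell, beside 0.100% higher and 0.206% lower of all genes tested. The median of the oligodendrocyte list was 0.37 in males and -0.01 in females, and that of the microglia list was 0.44 in males and -0.18 in females. Without the male wild type the medians over both sexes were -0.02 and -0.18. The muscle median was 0.40 without the female wild type, when the blood list, at -0.55, was the lowest of the 24. Over all 24 lists, 11 medians changed sign in at least 1 alternative.

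Stress and hormone lists were read last. Their counts at an unadjusted p under 0.05 stand beside 4.75% higher and 5.07% lower of all genes tested. Of 17 glucocorticoid response genes edgeR called 0, DESeq2 1 higher and limma-voom 0, with 4 higher and 1 lower at an unadjusted p under 0.05. klf9, a transcription factor induced by glucocorticoids, had 114 and 155 CPM in the male and female mutant, against 64.9 and 103 in the male and female wild type (log2 fold change 0.70, adjusted p = 0.0740). Of 54 heat shock and chaperone genes edgeR and limma-voom called 0 and DESeq2 1 lower, with 9 higher and 3 lower at an unadjusted p under 0.05. The small heat shock gene hspb15 had a log2 fold change of -0.97 (adjusted p = 0.0514). Among 35 circadian clock genes 0 passed by any of the 3 tests, with 3 higher and 1 lower at an unadjusted p under 0.05 and a median of 0.03.

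Gene order relative to atrn was also read. Of the 19943 genes, 18178 were matched to a RefSeq gene table of the assembly GRCz12tu, which was used for order only, since the deposited counts were made on GRCz10. Within 50 genes of atrn lay 0 of the 56 matched genes that passed the test, 0 of 217 genes at least 2-fold in the same direction in males and females, and 47 of all matched genes (0.259%). Within 200 genes the numbers were 0, 3 (1.38%) and 192 (1.06%). On the whole chromosome of atrn lay 1 gene that passed (1.79%) and 8 of the 2-fold genes (3.69%), against 711 of all (3.91%). None of the 17 named genes besides atrn was on that chromosome.

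Of the 233 matched genes that passed or were 2-fold in both sexes, 55 had another such gene within 10 places. They made 42 pairs, of which 33 shared a direction, and the globin cluster gave many of these pairs. The same share was not computed over all matched genes, so these counts do not show that changed genes cluster. Besides the globin cluster, adjacent pairs that shared a direction were efemp2b with fibpb and zgc:113208 with mtnr1c, all lower. Higher in both members were opn1lw1 and its tandem copy opn1lw2, cyp2aa11 and cyp2aa4, LOC799802 and si:ch211-214b16.3, LOC100535592 and LOC100535622, and si:dkey-15j16.3 and LOC100536356. Reads of the opsin pair may be split between near-identical copies. Besides the overlaps given with single genes above, atrn, arr3a, baiap2b, hif1al2, fah and b3gnt3 each overlap at least 1 other gene in the reference annotation.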

How the data were processed

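Brain RNA of 4 zebrafish groups (male and female, atrn-/- and wild type) was sequenced with 1 library each, prepared with an Illumina TruSeq kit that does not mark strand. The table that the authors deposited holds raw, whole-number read counts, without scaling. Alignment is given as MapSplice in the methods of the study and as HISAT2 on GRCz10 in the submitters' processing notes, and the counting program is not given in the sources used here. The RPKM values and EB-Seq screen of the study were not used. Deposited annotation columns served only for descriptions and gene order.

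Genes averaging 10 or more counts per library were tested with edgeR 4.0.16 in R 4.3.3 (TMM scaling, quasi-likelihood test, sex and genotype as terms), with Benjamini-Hochberg adjustment over all 19943 genes and a threshold of 0.05. Standard errors were derived from the fold change and its F statistic. Ratios within a sex used a prior count of 2 and exact Clopper-Pearson 95% intervals of the mutant's share. Depth was 8654693 to 16254750 counts per library. The fit was also run on simulated counts with the same change in both sexes and a common dispersion for all genes. Those counts do not cover disagreement between the sexes or changes in genes of low count.

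Named genes were atrn; all genes with a name outside the lists sterol synthesis, blood and muscle that passed with the same sign in both sexes; the 12 highest and 12 lowest named genes averaging 50 or more counts that were at least 2-fold in the same direction in males and females; and, in each list described, the 2 members of smallest p and the most abundant. Other genes are marked as chosen after their values were seen. Members, lists and tests were chosen with earlier results of these data known, so no list is independent evidence of its direction.

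Alternatives were DESeq2 1.42.0 size factors, total counts, no filter, a mean of at least 50 counts, a DESeq2 Wald test, limma 3.58.1 voom, the legacy dispersion, no sex term, prior counts of 0.5 and 5, a 1.5-fold limit and leaving out each library.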

Additional observations from a re-analysis of the deposited data

Results flagged for a closer look

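Among the genes that passed the test over both sexes, the muscle myosin heavy chain gene myha moved in opposite directions in the sexes. It had 4 counts in the male mutant and 2 in the male wild type, a log2 ratio of 0.536 (95% counting interval -1.81 to 4.45), and 17 counts in the female mutant and 2359 in the female wild type, a log2 ratio of -7.54 (-8.48 to -7.01). The difference between the sexes was not tested. The female wild-type library also had the highest share of the muscle list (0.764% of its counts).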

How the results depend on the processing

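None of the 31 genes tested under the alternatives turned its direction. Apart from atrn they were chosen for 1 direction in both sexes of these same libraries, so that outcome was largely set by the choice. The medians of 11 of the 24 lists changed sign in at least 1 alternative. The largest such shift was that of the muscle list, -1.45 in the reported fit and 0.40 without the female wild type, and the other 10 lay between -0.25 and 0.46 throughout. The scalings moved the median of all genes by less than 0.1 on the log2 scale. With total counts 90 genes passed (64 lower) and 35 named genes, and with DESeq2 size factors 50. With no filter 11 passed (3 higher, 8 lower) and 5 named genes, with the DESeq2 Wald test 93 (42 higher) and 49 named genes, with limma-voom 59 (11 higher), with the legacy dispersion 42 (13 higher) and 11 named genes, and with no sex term 10 (4 higher, 6 lower) and 2 named genes. Of the 61, these fits called 61, 50, 11, 46, 47, 42 and 10. The share of higher genes among those called was 32.8% in the reported fit, 45.2% by DESeq2 and 18.6% by limma-voom. Leaving out 1 library at a time, with no sex term and the lone library of a genotype assumed to vary like the others, gave 7 to 52 genes (4 to 14 higher, 3 to 41 lower), 2 to 14 named genes, and the fewest without the female mutant. Of the 18 named genes, 7 still passed without the male mutant, 4 without the male wild type, 1 without the female mutant and 3 without the female wild type. The log2 fold change of atrn was -1.01 with DESeq2 size factors (adjusted p = 0.0598), -1.01 with no filter (0.222), -1.02 with the legacy dispersion (0.0753) and -1.04 with no sex term (0.236), and -1.31 to -0.73 with a library left out. The number of genes at least 2-fold in both sexes was 617 with no filter (292 higher, 325 lower, 184 named outside the 3 lists), 97 with a mean of at least 50 counts (31, 66 and 31) and 910 at 1.5-fold (414, 496 and 396). The cause of these shifts was not tested, except that fewer or more genes enter under another filter. The sex term of the fit compared mutant with wild type within each sex, and the labels carry no replicate numbers for any further pairing. Low counts limited single genes, and 1 library per sex and genotype limited every p-value.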
